A study of Mus musculus with 9 samples.

Results

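The stretch of mouse chromosome 7 within 2 Mb of Dbp was examined in a 4C-on-chip experiment, in which every array probe reports how often its surroundings were ligated to the Dbp locus. The members were the probes whose start lay from 43250001 to 47250000 on chromosome 7 in the coordinates of the files, 571 of 384942 probes. They filled 79 of 80 windows of 50 kb with at least 3 probes, out of 49538 such windows genome-wide. The centre, 45250000, is called the viewpoint, and sides are named proximal (smaller coordinates, towards the centromere) and distal. The files name no genome build, so neither the place of the bait nor a gene could be read from the coordinates. The centre was set with earlier results of these data known, so a high signal around it is a description and was not tested.

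Contacts of Dbp were measured in cultured fibroblasts of mouse embryos, which had received dexamethasone for 2 h to set their clocks to a common phase. Crosslinked chromatin was cut with HindIII, ligated, cut with Csp6I and amplified outward from Dbp, per the labels' protocols. This DNA carried Cy5, genomic DNA of the matching cells cut with both enzymes carried Cy3, and each of 9 samples had 1 array. A value is the log2 of Cy5 over Cy3 at a probe, centred on the array's median.

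The study used 3 cell lines, and each time point of a line was 1 array. Cells of wild-type line 1 were taken 22, 26, 30, 34 and 46 h after the dexamethasone pulse, times called circadian times and written CT22 to CT46. Bmal1-/- cells were taken at CT22 and CT34, and per the labels that line came from siblings of line 1 and grew in the same serum. Wild-type line 2, harvested at CT22 and CT34, came from a cross of heterozygous mice of another strain and grew in other serum, and its array names carry 24 and 36 in place of those times. The Bmal1-/- genotype is a single line, so genotype and line cannot be told apart. The arrays of line 1 at CT26 and of the Bmal1-/- line share a style of array name that holds a slot number and no time, unlike the other 6. Means and SDs over line 1 run over 5 time points and are not replicate errors.

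Dbp encodes a PAR bZIP transcription factor whose gene is switched on daily by CLOCK and BMAL1, the activators of the core clock, through E-boxes. Bmal1 encodes the partner without which that activator complex does not form. In 4C profiles the contact frequency generally falls with distance from the bait, and steps in that fall are commonly read as borders of topological domains, stretches within which chromatin contacts itself more than its surroundings. The design asked whether the contacts of Dbp follow circadian time and the presence of Bmal1.

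In the RefSeq order of genes Dbp lies between Car11 and Ntn5 on one side and Sphk2 and Rpl18 on the other. Car11 encodes a carbonic anhydrase-related protein, Ntn5 a netrin, Sphk2 a sphingosine kinase and Rpl18 a ribosomal protein. The promoter of Dbp, as the viewpoint gene, and that of Sphk2, its neighbour whose promoter holds a site of the first enzyme, are shown because the enzyme sites set which fragments a 4C library can contain. Both are the 250 bases before an annotated transcription start in RefSeq on GRCm38.p6, 5′ to 3′ on the strand of the gene. Their coordinates belong to that build and not to the arrays. Capitals mark HindIII sites (AAGCTT) and Csp6I sites (GTAC), both searched on both strands, which read alike.
Dbp, chr7:45704997-45705246, plus strand: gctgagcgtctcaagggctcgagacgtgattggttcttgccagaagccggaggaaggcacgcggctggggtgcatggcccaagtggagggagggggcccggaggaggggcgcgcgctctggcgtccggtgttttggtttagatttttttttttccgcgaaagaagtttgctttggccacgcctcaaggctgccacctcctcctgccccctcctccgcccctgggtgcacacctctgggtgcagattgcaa
Sphk2, chr7:45715208-45715457, minus strand: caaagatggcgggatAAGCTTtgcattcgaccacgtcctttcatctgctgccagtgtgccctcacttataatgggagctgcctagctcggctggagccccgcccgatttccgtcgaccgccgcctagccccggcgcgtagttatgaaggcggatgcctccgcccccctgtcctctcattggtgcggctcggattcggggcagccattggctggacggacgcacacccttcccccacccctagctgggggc
The Dbp stretch held 0 HindIII sites, 0 Csp6I sites and 0 copies of the E-box CACGTG, and was 62.4% G or C. The Sphk2 stretch, 1 of 2 annotated starts of that gene, held 1 HindIII site and 0 Csp6I sites. Among 32851 mouse promoters of the same length 6.22% held AAGCTT, 31.5% GTAC and 6.02% CACGTG. A window without a match says only that these letters are not in it.

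The local signal stood above that of its flanks on chromosome 7 in all 9 arrays. The mean over the 79 windows was 3.41, 3.10, 3.38, 3.40 and 3.45 in line 1 at CT22, CT26, CT30, CT34 and CT46. It was 3.35 at CT22 and 3.25 at CT34 in the Bmal1-/- line, inside the range of line 1, and 1.38 and 1.41 in line 2. Line 2 was thus the line that stood apart, and it did so off chromosome 7 too. The SD of probes off chromosome 7 was 0.35 and 0.36 in line 2, 0.72 to 0.82 in line 1, and 0.82 and 1.01 in the Bmal1-/- arrays. What sets this narrower range of line 2 was not tested, and levels of line 2 are therefore described beside those of line 1. The tests of Bmal1-/- against wild type, however, take both lines together. They carry this difference between the lines unless line 1 alone or a block is named. In the flanks from 2 to 10 Mb the mean was 0.98 ± 0.06 (SD, n = 5) in line 1, 1.24 ± 0.18 (n = 2) in Bmal1-/- and 0.42 ± 0.03 (n = 2) in line 2. The region exceeded those flanks by 2.37 ± 0.11, 2.06 ± 0.26 and 0.98 ± 0.05 in the same order.

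Most single probes were high, but not all. A probe was called high when it passed its own array's 95th percentile off chromosome 7, which lay at 1.64 to 2.07 in line 1, at 2.16 and 2.73 in Bmal1-/- and at 0.51 and 0.52 in line 2. The share of high probes in the region ran from 80.2% to 82.5% over the line 1 arrays. It was 76.4% (exact Clopper-Pearson 95% interval 72.7 to 79.8) in Bmal1-/- at CT22 and 70.1% (66.1 to 73.8) at CT34, both below every line 1 array, while the off-chromosome percentile was above every line 1 array. In line 2 it was 68.0% and 68.8%. The intervals cover counting error only, since neighbouring probes are not independent. High in all 9 arrays were 262 probes of the region, 45.9%, and 30, 5.25%, were high in none. The matching counts over all probes were not made, so these counts describe the region only. Of the 100 highest probes of an array, 13 to 37 lay in the region in line 1, 26 and 22 in Bmal1-/-, with 7 and 5 for line 2.

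**Figure D1:**
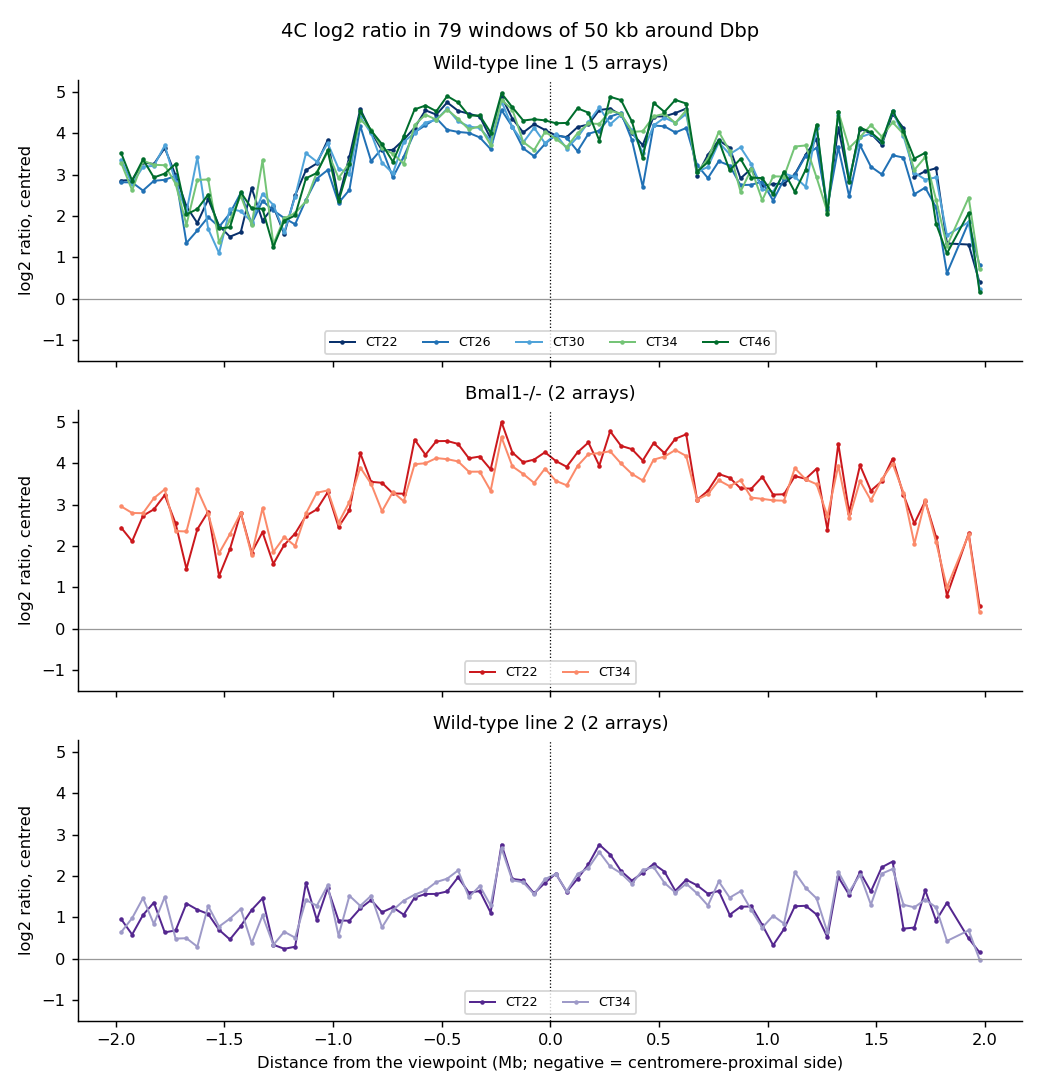
Mean log2 ratio (vertical axis, centred on each array's median) of 79 windows of 50 kb against the distance of the window's middle from the viewpoint (horizontal axis, Mb, proximal negative), in 3 panels for line 1 (5 arrays), Bmal1-/- (2 arrays) and line 2 (2 arrays), 1 line per array. A high inner stretch reaches about 650 kb on both sides, a trough lies between 1.2 and 1.7 Mb on the proximal side, and the distal side of line 1 and Bmal1-/- drops at about 1.8 Mb, while line 2 declines earlier.

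The viewpoint is the centre of the region, and whether the bait lies there could not be read. At this centre there was neither a gap in the probes nor a peak of the signal. The spacing of probe starts over the viewpoint was 9663 bp, between 45240354 and 45250017, and the widest spacing within 100 kb was 21520 bp. The median spacing was 5332 bp in the region and 5199 bp on all of chromosome 7, with 143 and 136 probes per Mb. The widest spacing of the region, 53829 bp between the probes at 47108142 and 47161971, lay near the distal end and left 1 window with 1 probe, which was not tested. On its near side the probe at 47108142 was at 0.65, 0.68, 0.67 and 0.69 in line 1 from CT22 to CT34 and at 2.04 at CT46, at 0.12 and 1.01 in Bmal1-/-, and at 0.44 and 0.53 in line 2. On its far side the probe at 47161971 was at -0.10, 2.69, 1.5, 2.59 and 1.87 in line 1 from CT22 to CT46, at 2.45 and 2.37 in Bmal1-/-, and at 0.19 and 0.03 in line 2. These single probes scattered more between arrays than the median probe, whose SD over the 5 line 1 arrays was 0.45.

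The windows beside the viewpoint were high but not the highest. The first distal window, 45250001 to 45300000, read 3.95, 3.97, 3.98, 3.87 and 4.25 over the line 1 times, 4.06 and 3.58 in Bmal1-/-, and 2.06 and 2.05 in line 2. The first proximal window, 45200001 to 45250000, read 4.08, 3.75, 3.76, 4.04 and 4.32, then 4.27 and 3.88, then 1.84 and 1.93. Both sides of the viewpoint were thus level, with overlapping arrays in line 1 and in Bmal1-/-. The next 2 windows averaged 3.87 and 4.05 in line 1 on the distal side and 3.95 and 3.91 on the proximal side.

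Within 100 kb of the viewpoint, where 27 probes lie, the signal was lower than from 100 to 650 kb in 9 of 9 arrays. The differences were -0.33, -0.25, -0.34, -0.50 and -0.23 in line 1, -0.29 and -0.40 in Bmal1-/-, with line 2 at -0.17 and -0.15. The dip was present at every time and in every line, and the 2 Bmal1-/- values lay inside the range of line 1. The distance of 650 kb was chosen after seeing the profile, and the dip cannot be tied to the bait, whose place is not known.

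Neighbouring probes next to the viewpoint differed widely in level, in the same order in all 9 arrays. The 2 probes given were picked after their values were seen. The probe 17 bp beyond the viewpoint was at 2.05, 2.18, 1.93, 1.58 and 2.15 in line 1, at 1.85 and 1.18 in Bmal1-/-, and at -0.57 and -0.45 in line 2. The next probe, 2503 bp out, was at 5.27, 5.27, 5.39, 4.92 and 5.70, then at 5.79 and 4.77, then at 3.06 and 3.26. Adjacent probes therefore differed by more than 3 log2 units while their SDs over the 5 line 1 times were 0.24 and 0.28. Over the region, the median absolute difference between neighbouring probes was 1.01 on the line 1 mean, against a median SD of 0.45 over the 5 times for 1 probe.

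**Figure D2:**
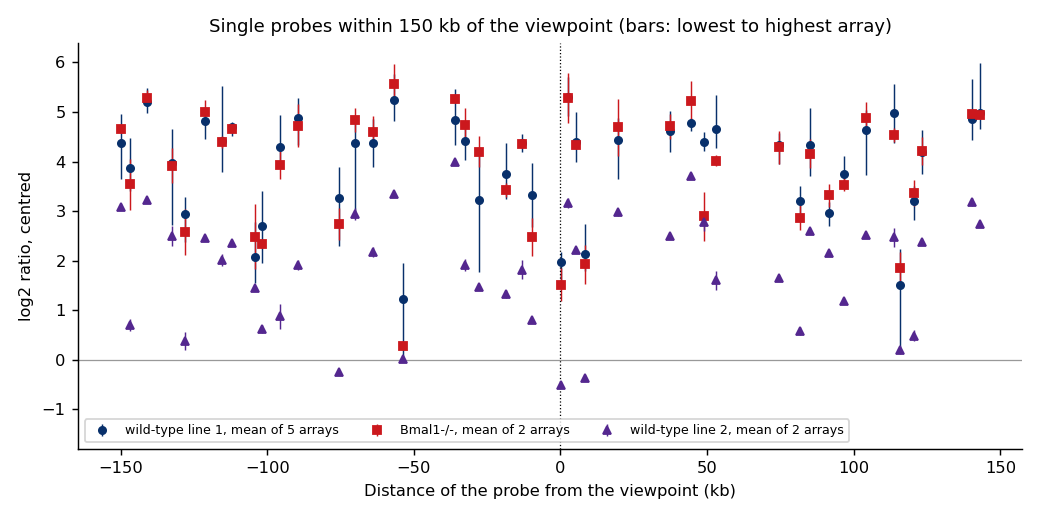
Log2 ratio of the 44 single probes within 150 kb of the viewpoint (vertical axis, centred) against their distance from it (horizontal axis, kb). Points are the means of line 1 (5 arrays), Bmal1-/- (2 arrays) and line 2 (2 arrays), bars run from the lowest to the highest array, and the probe at 17 bp lies below the next probe, at 2503 bp, in all 3 lines.

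The inner stretch of the domain was a plateau rather than a steady slope. In line 1 the proximal bands of 250 kb averaged 4.21, 4.25 and 3.99 out to 750 kb, and the distal bands 4.09, 4.20 and 3.92. Bmal1-/- averaged 4.14, 4.03 and 3.84 proximally and 4.02, 4.18 and 3.91 distally, and line 2 averaged 1.99, 1.66 and 1.46 proximally, falling from the first band, and 2.12, 2.14 and 1.71 distally. Windows within 650 kb exceeded those from 650 kb to 2 Mb by 1.32 ± 0.14 (SD, n = 5) in line 1, 1.25 ± 0.28 (n = 2) in Bmal1-/- and 0.77 ± 0.03 (n = 2) in line 2. Of 172 probes within 650 kb, 134 were high in all 9 arrays and 1 in none, against 128 and 29 of 399 probes farther out. That 1 probe, at 45436644 and picked after its values were seen, was at -0.17 to 0.68 in line 1, 0.87 and 0.34 in Bmal1-/-, with line 2 at -0.56 and -0.42, inside a distal band that averaged 4.09 in line 1. Fitted on the log10 of distance, the window signal fell by 1.65 ± 0.19 per log10 unit in line 1, by 1.61 ± 0.37 in Bmal1-/- and by 0.98 ± 0.02 in line 2.

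The 5 highest windows by the line 1 mean all lay from 200 to 650 kb, on both sides. Highest was the proximal window 45000001 to 45050000, 200 to 250 kb from the viewpoint, at 4.89, 4.57, 4.78, 4.81 and 4.97 in line 1, 5.00 and 4.63 in Bmal1-/-, with line 2 at 2.76 and 2.67. It stood above both of its neighbouring windows in all 9 arrays. The next were the windows starting at 44750001 (4.59), 45550001 (4.54), 45500001 (4.53) and 45850001 (4.50). Line 2 also had high values at 45500001, 2.52 and 2.23.

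The 5 lowest windows lay beyond 1.2 Mb. Lowest was the last tested distal window, 47200001 to 47250000, at 0.39, 0.81, 0.24, 0.72 and 0.17 in line 1, 0.55 and 0.41 in Bmal1-/-, with line 2 at 0.16 and -0.02. Next came 47050001, also distal, with a line 1 mean of 1.17. The other 3 were proximal, at 43700001 (1.54), 44000001 (1.79) and 43950001 (1.84). The profile therefore had low windows at its distal end and inside its proximal arm, and in line 2 only 47050001 at CT22, at 1.36, came near that array's mean of 1.38 over the region.

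The 3 highest single probes lay at 45956311 and 45526640, 706 and 277 kb on the distal side, and at 44609871 on the proximal side. They averaged 5.57 ± 0.30, 5.55 ± 0.33 and 5.48 ± 0.23 over line 1, and were high in 9 of 9 arrays. The 3 lowest lay at 43612880, 47207641 and 46199429, averaged -0.17 ± 0.19, -0.13 ± 0.49 and -0.01 ± 0.30, and were high in 0 of 9. Each probe of these 6 thus sat on the same side of the threshold in every array. Probes differed from each other by an SD of 1.40, windows by 0.92, and the median SD of 1 window over the 5 times was 0.28.

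The arms of the domain differed in shape far more than in mean level. Over 2 Mb, distal minus proximal was 0.14, 0.15, 0.16, 0.24 and 0.16 in line 1, 0.36 and 0.18 in Bmal1-/-, with line 2 at 0.30 and 0.32. All 9 arrays were a little higher on the distal side. From 1.25 to 1.5 Mb the distal arm was higher by 1.47, 0.87, 1.30, 1.51 and 1.53 in line 1, by 1.30 and 0.88 in Bmal1-/-, and by 0.71 and 0.75 in line 2. From 1.5 to 1.75 Mb it was higher by 1.37 ± 0.17, 0.94 ± 0.38 and 0.76 ± 0.31. In this stretch the proximal arm had its trough, at 2.10 and 2.22 in line 1, while the distal arm was still at 3.44 and 3.59.

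From 1.75 to 2 Mb the order turned. Distal minus proximal was -1.64, -1.42, -1.61, -1.43 and -1.85 in line 1, -1.21 and -1.57 in Bmal1-/-, with line 2 at -0.19 and -0.50. The proximal arm had risen again to 3.10 in line 1, against 1.51 on the distal arm. This crossing was present in 9 of 9 arrays. The small mean asymmetry over 2 Mb is therefore the sum of opposed stretches.

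**Figure D3:**
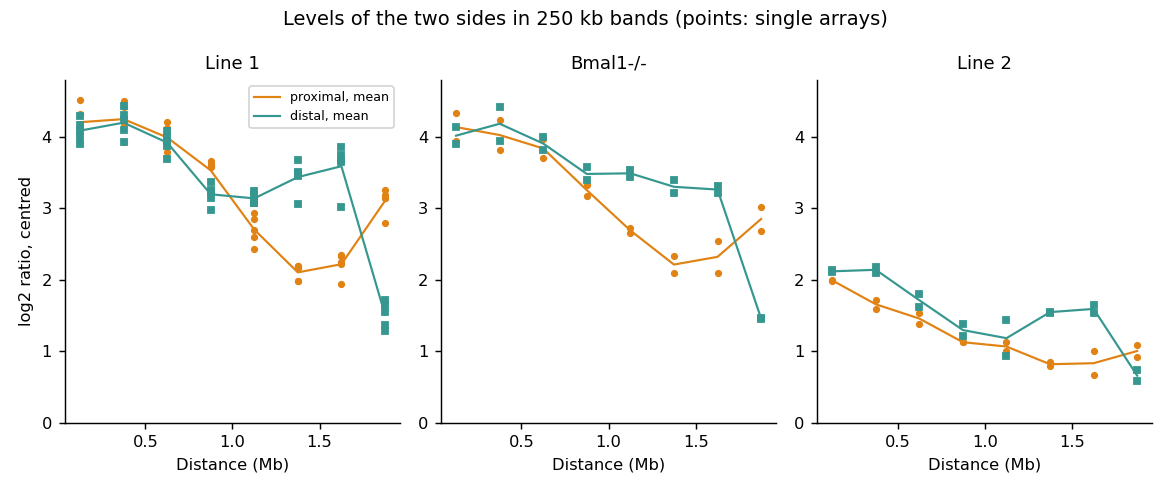
Mean log2 ratio (vertical axis, centred) in bands of 250 kb against distance from the viewpoint (horizontal axis, Mb) for the proximal and distal sides, in panels for line 1, Bmal1-/- and line 2. Lines are means and points single arrays (5, 2 and 2). The distal side is higher from 1.25 to 1.75 Mb and the proximal side from 1.75 to 2 Mb in all 9 arrays.

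The distal border of line 1 and Bmal1-/- lay within the same 100 kb by the first of 3 rules. Placed where the running mean of 3 windows first fell under 50% of its highest value, it lay at 1800, 1750, 1850, 1800 and 1750 kb over the line 1 times and at 1750 and 1750 kb in Bmal1-/-. In line 2 the same rule placed it at 850 and 950 kb. With the array's 95th percentile off chromosome 7 as the threshold, it lay at 1800 to 1850 kb in line 1, at 1750 and 1700 kb in Bmal1-/- and at 1900 and 1900 kb in line 2. Between these rules the border of line 2 moved by more than 900 kb, and that of the other lines by at most 50 kb. The largest single step lay at 1750 to 1800 kb in line 1, at 1800 and 1650 kb in Bmal1-/-, and at 1600 and 4550 kb in line 2.

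The step itself was seen in the windows around 1.8 Mb on the distal side. The windows starting at 47000001 and 47050001, on either side of it, averaged 2.50 ± 0.54 and 1.17 ± 0.35 in line 1, 2.16 and 0.90 in Bmal1-/-, with line 2 at 1.08 and 0.89. Over 4 windows inside and the 3 tested windows outside, line 1 was at 3.33, 2.71, 3.20, 3.23 and 3.20 inside from CT22 to CT46, and from 1.01 to 1.48 outside. Bmal1-/- dropped from 2.78 to 1.22 and from 2.64 to 1.23, and line 2 from 1.02 to 0.67 and from 1.31 to 0.37. The widest probe spacing of the region lies just outside this step. Beyond it the distal arm stayed between 0.61 and 1.32 in line 1 from 2 to 3.25 Mb, in bands of 250 kb, and rose again outside the region, to 3.23 ± 0.23 in line 1, 3.14 ± 0.03 in Bmal1-/- and 1.24 ± 0.03 in line 2 at 3.75 to 4 Mb.

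On the proximal side 2 edges were found, and which was called the border depended on the rule. The 50% rule stopped at the trough, at 1150 to 1200 kb in line 1, at 1200 and 1200 kb in Bmal1-/- and at 700 and 700 kb in line 2. The percentile rule gave 1450, 2300, 1450, 1200 and 1200 kb in line 1, 1200 and 1100 kb in Bmal1-/-, and 1200 and 1200 kb in line 2. Under that rule the line 1 arrays spread from 1200 to 2300 kb, and only at CT26, the line 1 array with the lowest threshold, 1.64, did the border lie beyond the trough. The largest single step lay at 2200 to 2250 kb in line 1 and Bmal1-/-, outside the region, where line 1 fell from 2.57 ± 0.26 to 0.45 ± 0.25 and Bmal1-/- from 2.47 to 0.88, and at 3600 and 2250 kb in line 2. The outer level of that step rests on 1 tested window with 5 probes. The nearest tested window inside it, 43100001 to 43150000, lay 2100 to 2150 kb out and averaged 1.71 ± 0.54 in line 1. From 2150 to 2300 kb no window was tested, so where in that stretch the signal fell could not be read in any array.

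No measure of the level or shape of the domain passed a test between genotypes. Bmal1-/- minus the 4 wild-type arrays at CT22 and CT34 was 0.90 for the mean signal (exact permutation test, two-sided, p = 0.80) and 0.02 for the asymmetry (exact permutation p = 0.80). For the 50% border it was 262 kb on the proximal side (exact permutation p = 0.40) and 400 kb on the distal side (exact permutation p = 0.80), and for the slope -0.32 (exact permutation p = 0.40). With a running mean of 5 windows the proximal border lay at 1725 kb in Bmal1-/- and 1062.5 kb in wild type, a difference of 662 kb (exact permutation p = 0.27). With 2 arrays against 4 the smallest possible p is 0.133, so this design could not pass 0.05. The wild-type mean includes line 2, with its narrow range. Against the 5 arrays of line 1 alone the mean signal of Bmal1-/- differed by -0.05 (exact permutation p = 0.67), the asymmetry by 0.10 (exact permutation p = 0.19), the borders by 30 and -40 kb, and the slope by 0.04, where the smallest possible p is 0.0952.

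Window by window, limma called 0 of the 79 windows for Bmal1-/- against wild type with circadian time as a term, where 0% of the 49538 windows were called (adjusted p under 0.05). At unadjusted p under 0.05 there were 3, 3.8%, against 12.1% of all windows. The median effect in the region was 0.93. With the replicate number as a block, which sets line 2 apart and leaves Bmal1-/- beside line 1, it was -0.12. With this block 14 windows, 17.7%, were at unadjusted p under 0.05, against 9.36%. With each array divided by its SD off chromosome 7 the median effect was -0.61 in SD units. On that scale there were 0 calls and 27 windows at unadjusted p under 0.05, 34.2%, against 6.05%. The direction in the region thus turned when line 2 was set apart and with the scale. The window with the smallest p, 43800001 to 43850000 in the proximal trough, was at 2.80 and 2.80 in Bmal1-/-, at 1.61 to 2.58 in line 1, and at 0.79 and 1.21 in line 2 (difference from wild type at CT22 and CT34 1.28 ± 0.44 SE, limma adjusted p = 0.366). The next were 46100001 (1.40), 46200001 (1.74), 43750001 (0.90) and 44000001 (1.02), with limma adjusted p of 0.39 to 0.482. These differences take both wild-type lines together, and line 2 lay below line 1 in each of these windows. At 44000001, for example, Bmal1-/- read 2.03 and 2.22 at CT22 and CT34, line 1 1.56 and 1.95, and line 2 0.24 and 0.65. Single probes gave 0 calls of 571 where 0.267% of all probes were called, and 18 at unadjusted p under 0.05, 3.15%, against 4.56%. With the replicate block there were 0 calls in the region and 0% of all probes were called. Then 63 probes of the region were at unadjusted p under 0.05, 11%, against 4.33%.

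Set against line 1 alone, on median-centred values, Bmal1-/- windows without overlap were about as frequent as elsewhere. Both were above all 5 line 1 arrays in 7 of 79 windows, 8.86%, against 10% of all windows, and below all 5 in 3 windows, 3.8%, against 3.41%. On chromosome 7 as a whole these shares were 11.8% and 2.44%. Of the 571 single probes 19 lay above all 5 line 1 arrays, or 3.33%, against 4.27% of all probes, and 48 below, or 8.41%, against 6.48%. Of the 7 windows, 4 adjoined each other on the distal side, from 950 to 1150 kb. There 46200001 read 3.68 and 3.14 in Bmal1-/- against 2.38 to 2.92 in line 1, and 46250001 read 3.25 and 3.11 against 2.38 to 2.96. Next, 46300001 read 3.255 and 3.099 against 2.78 to 3.079, and 46350001 read 3.69 and 3.89 against 2.58 to 3.68. In these last 2 windows the separation was narrow. The stretch was picked after its values were seen. The band from 1 to 1.25 Mb as a whole was at 3.54 and 3.44 in Bmal1-/- against 3.08 to 3.25 in line 1, without overlap. It holds windows of the picked stretch, so its separation follows in part from that pick. Divided by each array's SD off chromosome 7, the same band was at 4.29 and 3.39 against 3.84 to 4.42, so that the separation is lost on that scale.

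The counts below line 1 turned on single arrays and on the scale. With each array divided by its SD off chromosome 7, Bmal1-/- lay above line 1 in 0 windows, against 8% of all windows, and below in 23 of 79, 29.1%, against 3.77%. Without the line 1 array at CT26, Bmal1-/- lay below line 1 in 17 windows, 21.5%, against 5.38%, and above in 8, 10.1%, against 12.5%. That array alone in line 1 shares the array-name style of Bmal1-/-, so without it name style and genotype coincide. Against line 1 at CT22 and CT34 only, where they also coincide, Bmal1-/- lay below in 25 windows, 31.6%, against 11.1%. It lay above in 11, 13.9%, against 23%. Without Bmal1-/- at CT22 it lay below in 22 windows, 27.8%, against 13.2%, and above in 10, 12.7%, against 31.1%. Without Bmal1-/- at CT34 it lay below in 6 windows, 7.59%, against 14.5%, and above in 13, 16.5%, against 23.2%. After quantile normalization it lay below in 11 windows, 13.9%, against 7.95%, and above in 1, 1.27%, against 4.68%. With each array centred on its mean over the region it lay below in 7 windows, 8.86%, against 0.66%, and above in 5, 6.33%, against 9.01%. The Bmal1-/- arrays also had a wider spread off chromosome 7, given above, and its part in these counts was not tested.

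**Figure D4:**
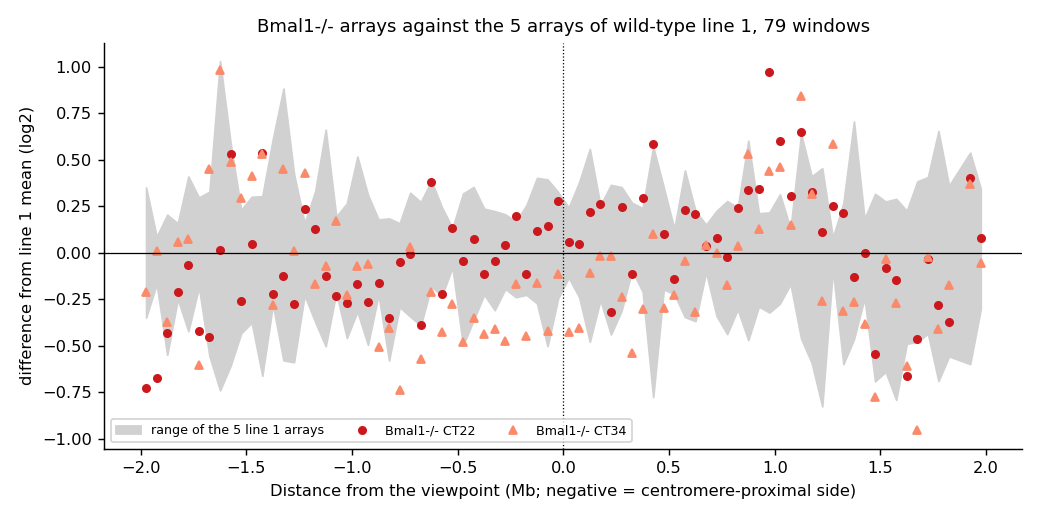
Difference of the Bmal1-/- arrays at CT22 and CT34 from the mean of the 5 line 1 arrays (vertical axis, log2) in 79 windows against distance from the viewpoint (horizontal axis, Mb). The grey band is the range of the 5 line 1 arrays. Both points lie above the band in 7 windows, 4 of them adjoining at 950 to 1150 kb, and below it in 3.

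From 500 kb to 1 Mb the order of the arms differed by line. Distal minus proximal was -0.24, -0.17, -0.11, -0.26 and -0.24 in line 1, but 0.13 and 0.16 in Bmal1-/- and 0.25 and 0.17 in line 2. Every line 1 array was higher on the proximal side and the other 4 on the distal side. The stretch was noticed among several bands after the values were seen, and Bmal1-/- shares its sign with the other wild-type line. A difference between the arms of 1 array does not depend on centring, and its sign does not depend on scaling by an SD.

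Over circadian time the line 1 profiles resembled each other and differed in level and in the fall with distance. Correlations of the 79 window values between line 1 arrays ran from 0.89 to 0.94 over 10 pairs, those between line 1 and Bmal1-/- from 0.86 to 0.93, and the Bmal1-/- pair reached 0.94. Between line 1 and line 2 they ran from 0.67 to 0.82, and the line 2 pair gave 0.82. These describe arrays that share probes and the fall with distance. CT26 was the lowest of the 5 line 1 arrays in 46 of 79 windows and CT46 the highest in 35. Within 650 kb CT26 was lowest in 18 and CT46 highest in 23 of 26. These ranks were not counted over all windows, but pairs of arrays were. CT26 exceeded CT22 in 13 windows of the region, 16.5%, against 41.7% of all windows. CT46 exceeded CT26 in 66, 83.5%, against 56.6%, so both shifts had the same direction genome-wide. CT26 is also the only line 1 array named in the style of the Bmal1-/- arrays, and a part of that in its level was not tested. From 650 kb to 2 Mb the mean was 2.97, 2.67, 2.99, 2.99 and 2.95 from CT22 to CT46, so CT46 was not the highest array there. Windows within 650 kb exceeded those farther out by 1.54 at CT46 and by 1.17 to 1.35 at the other 4 times. In the proximal band next to the viewpoint the line 1 levels were 4.32, 3.91, 4.12, 4.16 and 4.52. In units of each array's SD off chromosome 7 they were 5.98, 5.42, 5.29, 5.10 and 5.58, so CT26 and CT46 were no longer the extremes.

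CT34 and CT22, the times measured in all lines, differed little in the level of the region. The median of CT34 minus CT22 over the 79 windows was -0.06 in line 1, 0.06 in line 2 and -0.14 in Bmal1-/-, and the median size of the change in a window was 0.21, 0.20 and 0.28. Genome-wide this median size was smaller for every line, at 0.15, 0.055 and 0.23 in the same order. Windows of the region thus changed more than the typical window, most clearly for line 2, and the reason was not tested. Both wild-type lines were higher at CT34 in 17 windows, 21.5%, against 21.2% of all windows, and lower in 22, 27.8%, against 28.4%. Both of these shares are close to those of all windows. limma called 0 of 79 windows between WT CT22 and WT CT34, where 0% of all windows were called, and 0 at unadjusted p under 0.05 against 0.644%. With the cell line as a replicate block it called 0, and 7 at unadjusted p under 0.05, 8.86%, against 1.91%. The window with the smallest p was 47050001, outside the distal step, at 1.34 and 1.28 in line 1 and 1.36 and 0.43 in line 2 at CT22 and CT34 (difference -0.49 ± 0.32 SE, limma adjusted p = 1). The windows 43800001, 43850001, 43550001 and 44100001 followed, with differences of 0.65, -0.85, -0.64 and -0.59, all at limma adjusted p = 1. This fit held no term for the line, so the offset between the lines entered its SE. At 45000001, for example, the change was -0.08 in line 1 and -0.095 in line 2, with an SE of 1.08. The order by p therefore favours windows where the lines lie close and does not place a change in time. Single probes gave 0 calls of 571, where 0% of all probes were called, and 12 at unadjusted p under 0.05, 2.1%, against 0.325%. With the replicate block there were 34, 5.95%, against 0.778%. Of these shares at unadjusted p, only that of windows without the block lay below the genome-wide one.

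No window showed a genotype by time interaction or a rhythm that passed the test. For the interaction limma called 0 of 79 windows where 0% of all windows were called, and 0 at unadjusted p under 0.05 against 6.65%. With the replicate block there were 9 at unadjusted p under 0.05, 11.4%, against 13.7%. The smallest p was at 43550001, where CT34 minus CT22 was -0.44 in line 1, -0.84 in line 2 and 0.90 in Bmal1-/- (interaction 1.55 ± 0.99 SE, limma adjusted p = 0.817). It was followed by 47050001 (0.69), 43700001 (0.72), 43800001 (-0.65) and 44100001 (0.64). The interaction fit without the block held no term for the line either. For a 24 h rhythm fitted to the 7 wild-type arrays with a term for the line, limma called 0 of 79 where 0% of all windows were called, and 9 at unadjusted p under 0.05, 11.4%, against 4.48%. The 5 windows of smallest p were 43650001, 43750001, 46350001, 46250001 and 44500001, with amplitudes of 0.94, 0.44, 0.48, 0.47 and 0.57 and fitted peaks at 15.5, 5.64, 12.5, 14.0 and 15.9 h, each at limma adjusted p = 0.942. Window 43650001 read 2.41, 1.98, 1.69, 2.89 and 2.52 over the line 1 times and 1.08 and 1.28 in line 2. With times of 22, 26, 30, 34 and 46 h the fit leans on few phases of the day, and CT22 and CT46 are the same phase.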

How the data were processed

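Each deposited value is a log2 ratio, Cy5 (4C DNA) against Cy3 (genomic DNA), for 1 probe of 59 nt, and the authors' software wrote it after a shift by a Tukey biweight mean, per the file headers. The log base is the convention of that software and is not written in the files. The build, any background correction and any filter were not given in the sources used. Each of 9 arrays was centred on its median, and probes were averaged in 50 kb windows with at least 3 probes. Borders were searched to 5 Mb. The region, lists and distances were chosen with earlier results of these data known. The windows named were the 5 highest and 5 lowest by the line 1 mean, those nearest the viewpoint, the 5 of smallest p per comparison and those beside the largest step on each side. The single probes named were the 3 highest, the 3 lowest and those beside the widest spacing, and other named probes and windows are said to be picked after their values were seen.

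Windows and probes were fitted genome-wide in R 4.3.3 by lmFit and eBayes of limma 3.58.1 (two-sided, Benjamini-Hochberg over all of them). WT CT22 against WT CT34 used 4 arrays, Bmal1-/- against WT and the interaction 6, and the 24 h rhythm 7. Region measures used exact permutation tests over arrays. Among wild-type arrays replicate 1 is line 1 and 2 is line 2, so the numbers pair WT CT22 with WT CT34, and same-numbered arrays of these groups deviated together (r = 0.63 over all windows, 0.44 off chromosome 7 and 0.61 in the region). The Bmal1-/- line also carries replicate number 1, so in genotype fits the block sets line 2 apart and pairs no Bmal1-/- array with its own line. Scaling, window size, probe minimum, viewpoint exclusion, border rule, wild-type line, replicate block and single arrays were varied. The number of arrays limits the precision. The fits and border rules were tested on simulated data. Those data held no offset between lines, no narrower range of line 2 and no pairing, so they do not show how the fits behave with these. The rest used Python 3.11.15 (pandas 2.3.3, numpy 2.4.6, matplotlib 3.10.9, scipy 1.17.1).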

Additional observations from a re-analysis of the deposited data

Results flagged for a closer look

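The asymmetry over 2 Mb changed between CT22 and CT34 by -0.17 in Bmal1-/-, from 0.36 to 0.18, while it changed by 0.10 in line 1 and by 0.02 in line 2, so that the Bmal1-/- line moved opposite to both wild-type lines. The difference was not tested, since each line has 1 array per time.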

How the results depend on the processing

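The limits are few arrays, 1 Bmal1-/- line, a line 2 of narrower range and no independent viewpoint. For Bmal1-/- minus WT, division by each array's SD turned the mean signal to -0.57, the asymmetry to -0.25 and the slope to 0.63, and line 1 at all 5 times as wild type turned the mean signal to -0.047, the distal border to -40 kb and the slope to 0.040. The proximal and distal borders turned to -112 and -138 kb with the 95th percentile and to -350 and -712 kb with the largest step, and the proximal one was 662 kb with a running mean of 5 windows. Leaving out 1 array at a time gave 0.56 to 1.24 for the mean signal, -0.068 to 0.11 for the asymmetry (-0.016 without WT CT22 replicate 1, -0.068 without Bmal1-/- CT22), 183 to 350 kb and 233 to 550 kb for the borders, and -0.59 to -0.06 for the slope. Calls by limma stayed at 0 windows in the region in all 4 comparisons and all settings run, the replicate block included, which changed no call. For single probes between genotypes, leaving out 1 array gave 0 to 1 calls, the 1 without Bmal1-/- CT22. Among named windows, 100 kb windows turned 43800001 to -0.25 between times and to 0.21 in the interaction. For genotype, SD scaling turned 46100001 to -0.014 and quantile normalization turned 43750001 to -0.053. Leaving out 1 array gave -1.29 to 0.006 for 43550001 and -1.22 to 0.05 for 44100001 between times. Under quantile normalization, windows with Bmal1-/- above line 1 without overlap numbered 1, 1.27% against 4.68% of all windows, and those below 11, 13.9% against 7.95%. With centring on the region's mean 5 lay above, 6.33% against 9.01%, and 7 below, 8.86% against 0.66%. These counts were added after seeing the data. WT CT22 against WT CT34 and the interaction with line 1 alone were not run, as no residual degrees of freedom remain.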
